A study of Homo sapiens with 2 samples.

Results

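The zinc finger genes of human chromosome 19 were followed in BFTC 905 cells with and without a plasmid that expresses ANGPTL4. Members were the genes whose name in the deposited tables is ZNF and a number, with at most 1 letter after it, and whose chromosome is 19 in both tables. This gave 256 members of 55771 gene symbols, beside 289 genes named in the same way on other chromosomes and 2606 other genes on chromosome 19. BFTC 905 is an established cell line from a urothelial carcinoma of the bladder, described in the labels as low in ANGPTL4. The vector control library came from stable clones of this line carrying pcDNA3.1-myc-His (-) A, and the ANGPTL4 library from stable clones carrying a plasmid that overexpresses ANGPTL4, a secreted inhibitor of lipoprotein lipase. Both were kept in the same serum-supplemented medium and selected with G418, so the controls also carry a plasmid and went through selection. Whether a library is 1 clone or a pool of clones is not given in the sources used here. RNA was sequenced in 1 library per group, so no p-value is given, replicate spread is unknown, and each difference is one between 2 libraries.

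C2H2 zinc finger proteins bind DNA through a row of short finger modules, each folded around a zinc ion held by a pair of cysteines and a pair of histidines. Many of them start with a KRAB domain, which recruits TRIM28 (KAP1) and through it the histone methyltransferase SETDB1 and HP1 proteins, so that the bound DNA is packed into silent chromatin. Much of what they bind is the sequence of retrotransposons, and the genes multiplied by tandem duplication, which left large clusters of related copies on chromosome 19. Their transcripts are rare in most tissues.

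The repeated module is what ties the members to each other. Short reads can match several genes where sequence is shared, within or outside the fingers. One finger unit of 84 bases, from the first cysteine codon to the last base of the linker, is shown for 4 members that recur below: ZNF146 and ZNF121, which were among the most abundant, and ZNF91 and ZNF700, which were lower in the ANGPTL4 library. The codons of the zinc-binding cysteines and histidines are in capitals. All 4 units lie in the last exon of their GENCODE 29 transcript (GRCh38), at chr19:36236492-36236575 on the plus strand for ZNF146, chr19:9566594-9566677 on the minus strand for ZNF121, chr19:23362262-23362345 on the minus strand for ZNF91 and chr19:11948610-11948693 on the plus strand for ZNF700.
ZNF146 finger: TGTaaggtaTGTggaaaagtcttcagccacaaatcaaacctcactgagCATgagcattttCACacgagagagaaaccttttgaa
ZNF121 finger: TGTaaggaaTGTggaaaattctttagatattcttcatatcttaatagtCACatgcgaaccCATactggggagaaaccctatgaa
ZNF91 finger: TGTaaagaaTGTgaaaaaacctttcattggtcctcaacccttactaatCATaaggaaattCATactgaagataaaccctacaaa
ZNF700 finger: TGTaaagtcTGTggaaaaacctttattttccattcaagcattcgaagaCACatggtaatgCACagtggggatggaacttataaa
Compared base by base, the units shared between 46 of 84 bases (54.8%, ZNF146 and ZNF700) and 58 of 84 bases (69.0%, ZNF121 and ZNF91). Over the whole family the median number of fingers, in the coding sequence with the most of them, was 12 (9 for the zinc finger genes of other chromosomes). The most, 36, was found in ZNF208. A KRAB A-box pattern ahead of the fingers was found in 201 of the 242 members with a coding sequence (83.1%), against 110 of 261 genes on other chromosomes (42.1%). The pattern search can miss diverged domains, and it can match out of frame, since every reading frame was searched. The other 14 members are pseudogenes in GENCODE.

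Levels are in RPKM, which divides reads by exon length and by the library total. From the steps of these values the control library held 6572767 reads and the ANGPTL4 library 3233596, a depth ratio of 2.03. On a transcript of 2 kb, 1 read was worth 0.0761 RPKM in the control and 0.155 RPKM with ANGPTL4, and the 3 reads that a count of 0 allows were worth 0.228 and 0.464 RPKM. ANGPTL4 itself (chr19:8428173-8439257, hg19) stood at 3.92 RPKM in the control and 91.2 RPKM with ANGPTL4, from 64 and 732 reads, in the direction its labels give. All 11 epithelial markers on the list were measured, with summed levels of 2169 and 1995 RPKM. Fibroblast markers summed to 4.70 and 4.73 RPKM over 6 genes with COL3A1, DCN, LUM and PDGFRA at 0, and the 4 endothelial markers to 0.56 and 0.93 RPKM with none measured. Reads of mitochondrially encoded genes numbered 336114 and 281594, a larger share of the ANGPTL4 library, and their part in the differences below was not tested beyond the rescaling given with the pooled reads.

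Most of these genes were transcribed at low levels in the bladder cancer line. Of the 256 members, 236 were above 0 in the control and 221 with ANGPTL4, and 123 (48.0%) reached 1 RPKM in at least 1 library and are called measured here. Another 113 stayed between 0 and 1 RPKM, and 20 were listed at 0 in both. Among the 20 were ZNF536, known from the brain, ZNF541, a germ cell gene, and ZNF154 and ZNF671, whose promoters are known as methylation markers of urothelial cancer. At the other end, 14 members reached 5 RPKM and 4 reached 10 RPKM. The median of the measured members was 2.23 RPKM in the control and 1.70 RPKM with ANGPTL4. Behind these levels stood 2 to 748 reads per measured member in the control, with a median of 63, and 3 to 285 in the ANGPTL4 library, with a median of 26.

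**Figure D1:**
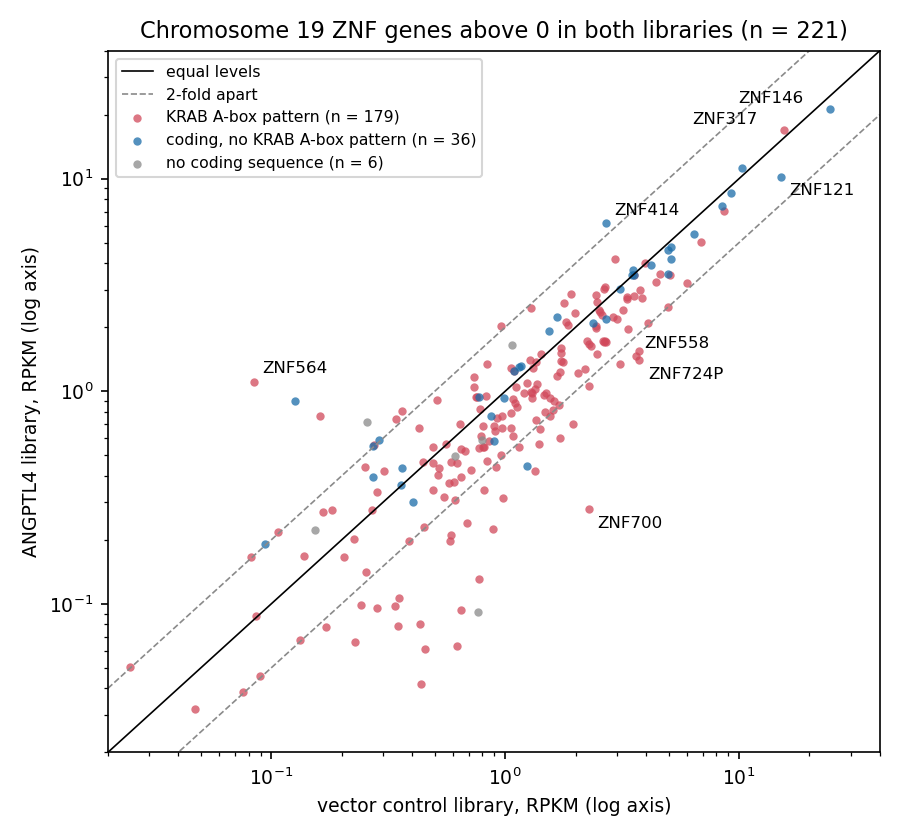
Levels of the 221 members above 0 in both libraries, vector control on the horizontal and ANGPTL4 on the vertical axis, in RPKM on log axes, coloured by the KRAB A-box pattern. More points lie below the line of equal levels than above it, and ZNF700 at 2.29 and 0.280 RPKM lies farthest below the lower 2-fold line among the measured members.

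The family was slightly lower in the ANGPTL4 library, with few large differences. In bulk RNA, fewer cells with a transcript and less of it per cell cannot be told apart. The log2 ratio, log2((RPKM + 1) in ANGPTL4 / (RPKM + 1) in control), had a median of -0.21 over the 123 measured members, with quartiles of -0.42 and 0.02 and a range from -1.36 to 0.96. Of the 123, 91 reached 1 RPKM in both libraries, 27 in the control only and 5 with ANGPTL4 only. The direction of those 27 and 5 follows from the cut. Of all 123 members 90 (73.2%) were lower in the ANGPTL4 library and 33 higher, beside 64.4% lower among all 11801 measured genes, whose median was -0.11. With all ratios centred on that median gene, 77 members were lower and 46 higher (62.6% lower), and with upper-quartile scaling 78 of 130 (60.0%). ZNF700 was the only member at least 2-fold lower on this scale, where 1.92% of all measured genes were. No member was at least 2-fold higher, where 1.19% of all measured genes were. At 1.5-fold, 14 members (11.4%) were lower and 4 (3.25%) higher, near the 9.25% and 3.08% of all measured genes, and 105 lay within that range. With a pseudocount of 0.1, 11 members (8.94%) were at least 2-fold lower and 2 (1.63%) higher, beside 4.51% and 2.41% of all measured genes. From reads with no pseudocount, 15 members (12.2%) were at least 2-fold lower and 3 (2.44%) higher, beside 4.32% and 1.4% of the 11099 measured genes with reads. These comparisons were not matched for level or read number. The control median was 2.23 RPKM for measured members and 6.03 RPKM for all measured genes. Ratios from few reads pass 2-fold more easily in both directions. Zinc finger genes on other chromosomes had a median of -0.08 over 178 measured genes, and the 729 other measured genes of chromosome 19 had a median of -0.07. Of 113 members under 1 RPKM with reads, 12 (10.6%) had a counting interval of the ratio wholly below 1 and 3 (2.65%) wholly above 1, beside 1.93% and 1.4% of all such genes. These shares were not matched for read number, and an interval from few reads cannot exclude 1. In ZNF749, with 6 reads in the control and 0 with ANGPTL4, the interval still reached 1.73. Of 236 members above 0, 15 (6.36%) were above 0 in the control only and 0 in the ANGPTL4 library only, beside 11.4% and 4.36% of all genes above 0.

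Counting error allows a direction for some members only. The exact 95% interval of the ratio of reads lay wholly below 1 for 28 of the 123 measured members, where it did for 28% of all measured genes with reads. It lay wholly above 1 for 6 members, where 8.53% of genes did. As shares these are 22.8% and 4.88%, so neither exceeds the background. The members' smaller read numbers make their intervals wider than those of the more abundant genes. Spread over genes, levels in the 2 libraries followed each other, with a Spearman rho of 0.80 and a Pearson r of 0.87 on log2 levels over the 123 members. These points share both libraries.

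Summed reads give a value that does not rest on single members. The 204 members with settled whole reads held 12421 reads in the control library and 4983 in the ANGPTL4 library, which is 0.189% (Wilson 95% interval 0.186% to 0.192%) and 0.154% (0.150% to 0.158%) of each total. Per library total the ratio was 0.815 (exact 95% interval 0.789 to 0.843), beside 0.939 (0.919 to 0.959) for zinc finger genes on other chromosomes, 0.981 (0.975 to 0.987) for other genes on chromosome 19 and 0.924 (0.922 to 0.925) for all other nuclear genes. The interval of the members lay below the intervals of those 3 sets. Without the 6 members of highest level the ratio was 0.800. After rescaling without mitochondrially encoded genes it was 0.848 (0.820 to 0.876), beside 0.960 for other nuclear genes. These intervals cover counting error only, not the difference between cultures or library preparations.

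Among members with at least 2 RPKM in a library, the 12 with the lowest log2 ratios all carried the KRAB pattern except ZNF121, as did 10 of the 12 highest and 98 of the 122 measured coding members (80.3%). Some of the lowest, such as ZNF700 and ZNF558, reached 2 RPKM in the control only. Some of the highest, such as ZNF766 and ZNF331, reached it with ANGPTL4 only. The cut on the higher library therefore helped to choose the members at both ends. ZNF700 (chr19:12035883-12061588, hg19, 18 fingers) had 2.29 RPKM in the control and 0.280 RPKM with ANGPTL4. That is 50 reads against 3, a ratio of 0.122 (0.0243 to 0.378). Its region overlaps those of 3 other rows, and 18.3% of its 50-base stretches occur in other genes, 15.3% in AC008770.2. ZNF724P (chr19:23404401-23433192), named as a pseudogene but listed as protein coding in GENCODE 29, had 3.76 and 1.40 RPKM from 82 and 15 reads, and a ratio of 0.372 (0.199 to 0.650). Almost as much of it is shared sequence as not, 48.7% of its 50-base stretches, and 43.6% occur in AC092329.3. ZNF558 (chr19:8920380-8943004), a KRAB gene known to repress SPATA18, stood on more reads: 222 in the control and 44 with ANGPTL4. Its levels were 3.63 and 1.46 RPKM, a log2 ratio of -0.91 and a read ratio of 0.403 (0.285 to 0.559). Only 2.88% of its 50-base stretches are shared.

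ZNF91, a long protein of 31 fingers that silences SVA retrotransposons, was lower too. It had 4.08 RPKM in the control and 2.09 RPKM with ANGPTL4, from 226 and 57 reads, and a ratio of 0.513 (0.377 to 0.688). ZNF28 (4.99 and 2.48 RPKM) and ZNF426 (6.01 and 3.25 RPKM) had ratios of 0.498 (0.355 to 0.686) and 0.541 (0.422 to 0.687). ZNF845 had at least 108 and 22 reads, and a ratio of 0.414 (0.249 to 0.659). The remaining low members were ZNF805 (0.430), ZNF506 (0.465), ZNF614 (0.588), ZNF121 (0.674) and ZNF543 (0.575), and only the interval of ZNF543, 0.301 to 1.04, included 1. ZNF121, which has no KRAB pattern, was the best counted of them, with 748 reads in the control and 248 with ANGPTL4.

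The 12 highest log2 ratios at that level ran from 0.95 down to 0.15, and 7 of the 12 had counting intervals that included 1. ZNF414 (chr19:8575462-8579048), a gene with a single finger by the pattern used, had 2.70 RPKM in the control and 6.16 RPKM with ANGPTL4. Its reads were at least 33 and 37, a ratio of 2.28 (1.39 to 3.76) and a log2 ratio of 0.95. ZNF414 is also the measured member nearest to ANGPTL4, starting 0.147 Mb after it. ZNF587B (chr19:58331099-58370018) had 0.960 and 2.02 RPKM, a ratio of 2.10 (1.22 to 3.63), with 24.1% of its 50-base stretches shared and its region overlapping 5 other rows. ZNF766 had 1.29 and 2.46 RPKM from 68 and 64 reads, and a ratio of 1.91 (1.34 to 2.73). ZNF331, an imprinted gene, had 1.91 and 2.88 RPKM, a ratio of 1.51 (1.10 to 2.07).

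Of the other 8, only ZNF791 had an interval above 1, from 1.01 to 1.97 around a ratio of 1.41. ZNF738, ZNF653, ZNF155, ZNF264, ZNF211, ZNF550 and ZNF83 had log2 ratios from 0.37 down to 0.15 and intervals that included 1. ZNF738 has the KRAB pattern but no finger by the pattern used, and stood at 1.79 RPKM in the control and 2.61 RPKM with ANGPTL4.

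**Figure D2:**
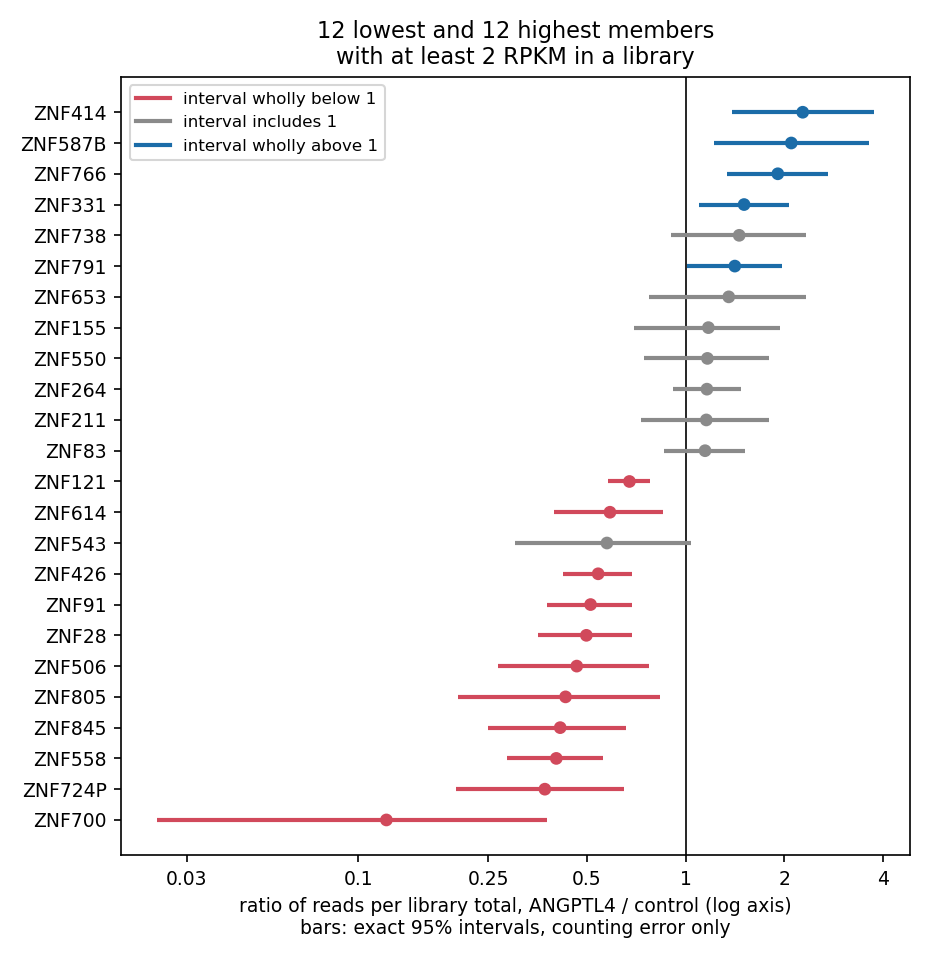
Ratio of reads per library total (ANGPTL4 over control, log axis) of the 12 lowest and 12 highest members with at least 2 RPKM in a library, with exact 95% counting intervals as bars. Among the lowest 12 the interval of ZNF543 alone includes 1, and among the highest 12 the intervals of ZNF414, ZNF587B, ZNF766, ZNF331 and ZNF791 lie above 1.

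Of the 6 members with the highest mean RPKM of both libraries, 4 had intervals that included 1, and ZNF121 with 15.2 and 10.2 RPKM showed the widest gap. ZNF146, a protein made almost entirely of fingers, was the highest, with 24.5 RPKM in the control and 21.3 RPKM with ANGPTL4, from 668 and 285 reads, and a ratio of 0.867 (0.752 to 0.998). ZNF317, a KRAB gene of 13 fingers, had 15.5 and 16.97 RPKM, a ratio of 1.09 (0.941 to 1.27). ZNF787 had 10.3 and 11.2 RPKM, a ratio of 1.09 (0.873 to 1.35). ZNF581 (9.29 and 8.55 RPKM) and ZNF358 (8.44 and 7.46 RPKM) were also within counting error of equal levels. ZNF317 and ZNF121 lie 0.420 Mb apart and had ratios whose intervals did not overlap.

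Along the chromosome the members fell into 22 blocks when a new block was started at every gap over 500 kb between starts. Of these 10 were single genes, and 8 blocks with at least 5 measured members held 230 of the 256 members and 111 of the 123 measured ones. All 8 had a median log2 ratio below 0, as had all 9 such blocks with gaps of 250 kb and all 7 with gaps of 1000 kb. The median of all measured genes was itself -0.11, with 64.4% of them lower, and the block and arm counts that follow stand beside that share. With ratios centred on the median gene, 3 of the 8 medians turned positive. The widest gap, 6502.9 kb from ZNF254 to ZNF536, includes the centromere. The 88 members before it had a median log2 ratio of -0.30 (35 of 44 measured lower) and a pooled read ratio of 0.740 (0.702 to 0.779). The 168 members after it had a median of -0.16 (55 of 79 lower) and a pooled ratio of 0.873 (0.837 to 0.911), an interval above that of the first.

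The block nearest ANGPTL4 ran from ZNF414 to ZNF846 (chr19:8575462-9903856) and held 14 members, 8 measured and 6 of those lower. Its median log2 ratio was -0.34 and its pooled ratio 0.749 (0.698 to 0.804). Within it the first member after ANGPTL4, ZNF414, was higher and the next measured one, ZNF558, lower, so that the 2 lay 1.86 apart on the log2 scale. On the other side, the nearest measured member was ZNF358, with 8.44 and 7.46 RPKM. The following block, ZNF653 to ZNF791 (chr19:11594242-12750912), had 24 members, 13 measured and 9 lower, a median of -0.26 and a pooled ratio of 0.760 (0.659 to 0.874). It held the lowest log2 ratio of all, in ZNF700, and the highest, in ZNF564. ZNF564 had 0.0840 RPKM in the control and 1.11 RPKM with ANGPTL4, from 2 and 13 reads, so it counts as measured through the ANGPTL4 library only. Its ratio was 13.2 with an interval from 2.99 to 121. Of its 50-base stretches 67.0% are shared, 63.8% with AC010422.6.

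The block from ZNF101 to ZNF254 (chr19:19779605-24312654), the cluster beside the centromere on the short arm, had the lowest pooled ratio of the 8. It held 41 members, 35 with the KRAB pattern, and its transcripts had the lowest median GC content of the 8 blocks, 37.6%. Of its 19 measured members 17 were lower (89.5%, beside 64.4% of all measured genes). The median went from 1.62 RPKM in the control to 1.08 RPKM in the ANGPTL4 library, and the median log2 ratio was -0.33. The pooled ratio was 0.652 (0.583 to 0.728), from 1331 and 427 reads. Besides ZNF91, ZNF724P and ZNF506, the members ZNF14 (1.34 and 0.420 RPKM), ZNF430 (1.62 and 0.904 RPKM) and ZNF431 (2.64 and 1.70 RPKM) had intervals below 1. These 3 were picked after their values were seen. ZNF738 and ZNF714 were the measured members that were higher.

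The 5 long-arm blocks had pooled ratios from 0.822 to 1.03, above the 0.652 to 0.760 of the 3 short-arm blocks. Some of their intervals overlapped, as in ZNF575 to ZNF180 (0.691 to 0.975) and ZNF653 to ZNF791 (0.659 to 0.874). Median log2 ratios did not keep this order, with -0.29 in the long-arm block ZNF264 to ZNF446 and -0.26 in ZNF653 to ZNF791. The blocks also differ in GC content, whose part in this was not tested. In ZNF565 to ZNF573 (chr19:36673188-38307940) only 5 of 26 members were measured, with ZNF146 giving 668 of the block's 1333 control reads and a pooled ratio of 0.845 (0.764 to 0.934). In ZNF575 to ZNF180 (chr19:44029649-45004576), home of ZNF224, which binds the aldolase A promoter, 7 of 12 measured members were lower with a median of -0.10. That share, 58.3%, stood beside 64.4% of all measured genes. ZNF283 was at the low end of that block with 1.39 and 0.566 RPKM (ratio 0.406, 0.222 to 0.701), and ZNF224 at the high end with 0.839 and 1.35 RPKM (ratio 1.60, 0.960 to 2.66). In ZNF175 to ZNF331 (chr19:52074551-54083523), the block with most members, 16 of 24 measured members (66.7%) were lower. The median was -0.20 and the pooled ratio 0.884 (0.819 to 0.954). That block held both ZNF845 and ZNF28 at the low end and ZNF766 and ZNF331 at the high end.

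The block from ZNF628 to ZNF835 (chr19:55987699-57183151) was the only one of the 8 with a pooled ratio above 1, 1.03 (0.910 to 1.16). Only 6 of its 17 members had the KRAB pattern, and its median transcript GC content was 57.8%, the highest of the 8 blocks. Of its 10 measured members 6 were lower (60.0%, beside 64.4% of all measured genes). The log2 ratios ran from ZNF444 (2.71 and 2.18 RPKM), which binds the SCARF1 promoter, to ZNF542 (1.07 and 1.65 RPKM), and no interval excluded 1. The last block, ZNF264 to ZNF446 (chr19:57702868-58992597), had 42 members with 15 of 20 measured lower, a median of -0.29 and a pooled ratio of 0.824 (0.743 to 0.912). ZNF274, which guides SETDB1 to the ends of other zinc finger genes, lies there and was named for that role after its values were seen. It had 2.48 RPKM in the control and 2.63 RPKM with ANGPTL4, a ratio of 1.06 (0.785 to 1.42).

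Smaller blocks and single genes lay on both sides of 1. ZNF114 (1.72 and 0.601 RPKM, from 35 and 6 reads) had a ratio of 0.348 (0.120 to 0.837). ZNF473, a component of the machinery that processes histone messenger RNA, had 1.95 and 0.701 RPKM, a ratio of 0.359 (0.177 to 0.668). ZNF507 was equal within error, with 3.49 and 3.52 RPKM and a ratio of 1.01 (0.809 to 1.25). ZNF296 (0.713), ZNF333 (1.22), ZNF574 (0.856), ZNF526 (0.929), ZNF556 (0.793), ZNF57 (0.478), ZNF302 (0.654) and ZNF181 (0.762) had ratios whose intervals included 1.

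**Figure D3:**
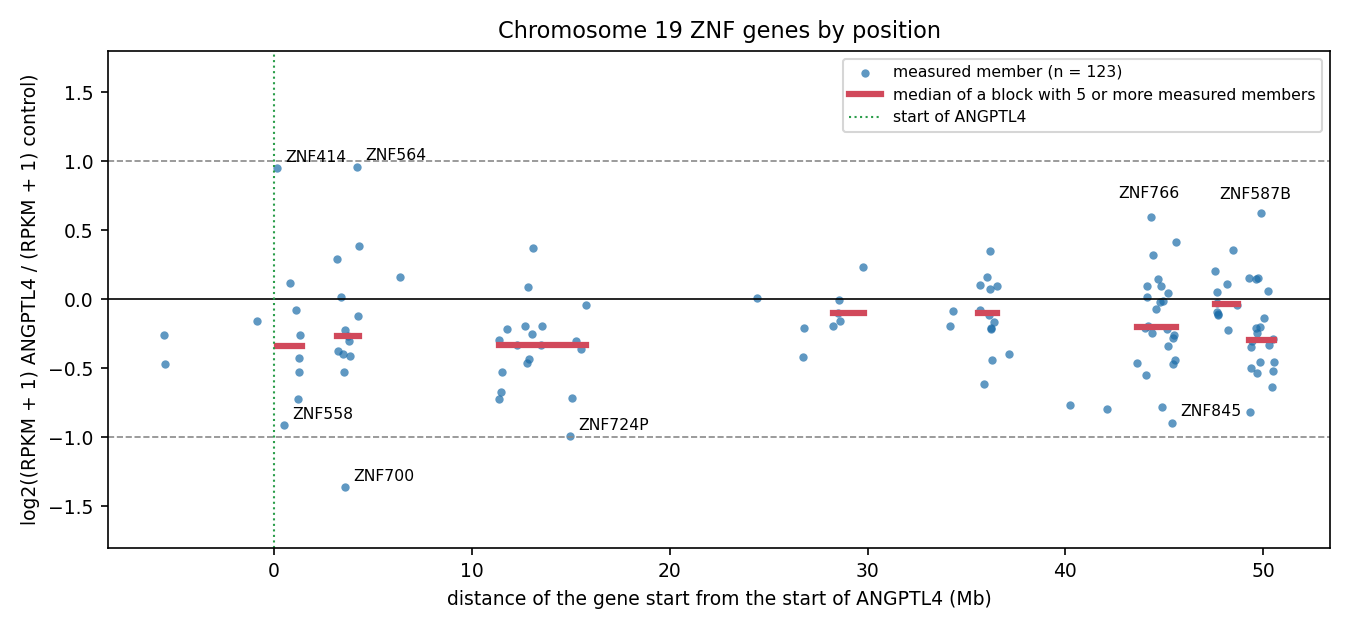
Log2 ratio of each of the 123 measured members (points) by the distance of its start from the start of ANGPTL4 (Mb, hg19), with the median of each block of at least 5 measured members as a red bar. All 8 bars lie below 0, from -0.34 in the block next to ANGPTL4 to -0.03 in the block ZNF628 to ZNF835. The median of all measured genes was -0.11.

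Members with and without a KRAB domain differed in the size of the gap. The 98 measured members with the KRAB A-box pattern had median levels of 1.88 RPKM in the control and 1.48 RPKM with ANGPTL4, 75 of 98 were lower, and the median log2 ratio was -0.25. The 24 coding members without it had medians of 3.54 and 3.63 RPKM, 15 of 24 were lower, and the median log2 ratio was -0.08. Among all measured genes 64.4% were lower, with a median of -0.11. Pooled read ratios were 0.784 (0.754 to 0.816) with the pattern and 0.890 (0.837 to 0.947) without it, intervals that did not overlap. On other chromosomes the same split gave 0.886 (0.846 to 0.928) for KRAB genes and 0.959 (0.936 to 0.982) for those without. The KRAB members of chromosome 19 thus had the lowest pooled ratio of the 4 classes, below the interval of the KRAB genes elsewhere. These classes also differ in level and base composition. Split by transcript GC content, the intervals of the KRAB genes on chromosome 19 and elsewhere overlapped. Under 45% GC the pooled ratios were 0.744 (0.711 to 0.779) and 0.823 (0.770 to 0.879). From 45% up they were 0.920 (0.850 to 0.994) and 0.954 (0.894 to 1.02).

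The pooled ratio was higher in members with more GC in their transcripts. The pooled ratio was 0.729 (0.678 to 0.783) for members under 40% GC, 0.785 (0.748 to 0.823) from 40% to 45%, 0.846 (0.765 to 0.934) from 45% to 50% and 1.0003 (0.928 to 1.08) from 50% up. All other nuclear genes gave 0.871, 0.881, 0.917 and 0.961 in the same 4 classes. Median log2 ratios of the measured members were -0.25, -0.21, -0.33 and -0.08 in these classes, so they did not follow the same order. In the first 2 classes the members' intervals lay below those values, and in the last they did not. The median GC content was 42.5% for measured members and 48.7% for other measured genes. Across the 123 members the Spearman rho of log2 ratio and GC content was 0.14, and across 11050 other genes it was 0.12, weak in both. Within members under 45% GC, those with the KRAB pattern had a pooled ratio of 0.744 (0.711 to 0.779) and those without 0.830 (0.763 to 0.902). ZNF121 and ZNF146 give 1416 of the 1921 control reads of those without, whose median log2 ratio was -0.01. From 45% up the ratios were 0.920 (0.850 to 0.994) and 0.971 (0.885 to 1.06). ZNF317 gives 517 of the 2060 control reads of the KRAB members from 45% up, whose median log2 ratio was -0.29.

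**Figure D4:**
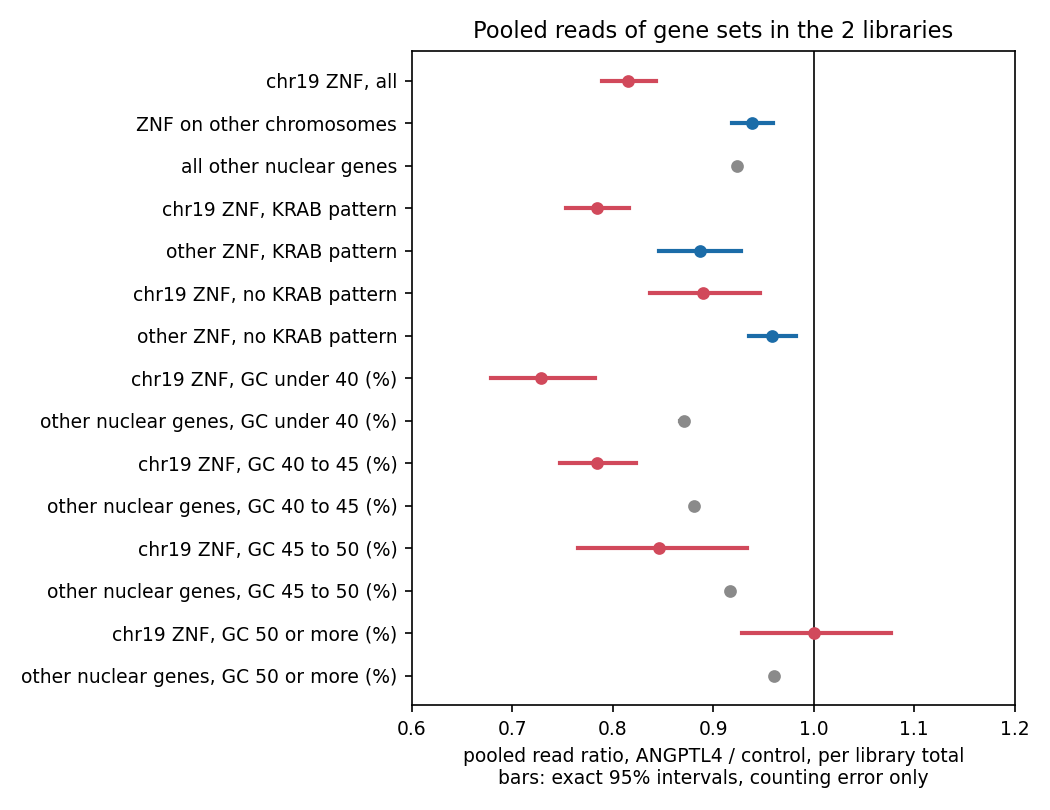
Pooled read ratio (ANGPTL4 over control, per library total) of members and comparison sets, split by KRAB pattern and by transcript GC content, with exact 95% counting intervals as bars. The members run from 0.729 under 40% GC to 1.0003 from 50% up, and the other nuclear genes from 0.871 to 0.961.

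Members were also split by level, finger number and shared sequence. Median log2 ratios were -0.21 for members whose higher level was 1 to 2 RPKM, -0.22 for 2 to 5 RPKM and -0.19 for 5 RPKM or more, with pooled ratios of 0.820, 0.819 and 0.831. The 10 measured members with 0 to 5 fingers had a median of -0.01 and a pooled ratio of 1.0003 (0.871 to 1.15), the only finger class whose interval included 1. Members with 6 to 11, 12 to 17 and 18 or more fingers had pooled ratios of 0.782, 0.847 and 0.780. Reads that match several genes could be placed by rules not given in the sources used here, and 180 of the 256 members overlap the region of another row. Members that share under 5% of their 50-base stretches with other genes had a pooled ratio of 0.840 (0.803 to 0.879), those sharing 5% to 25% 0.776 (0.736 to 0.819), and the 29 sharing 25% or more 0.852 (0.754 to 0.961). All 3 intervals lay below 1. Other genes here include read-through and overlapping genes of the same locus, such as ZNF559-ZNF177, which holds 86.8% of the stretches of ZNF177. The split therefore does not isolate reads that match other loci.

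Promoters of the family are shown here because some members that differed in opposite directions carry the same letters. RefSeq promoters (GRCh38.p14, 250 bases before to 50 after the gene start) were matched for 213 members. The ETS core CCGGAAG, the letters bound by ETS factors such as GABPA, was present on either strand in 46.0% of them, against 10.7% of 27305 promoters of all genes (1 per gene), 34.9% of zinc finger genes on other chromosomes and 19.8% of 8823 measured genes with other names. CCAAT was present in 53.1% of member promoters, 35.7% of all, 44.0% of zinc finger genes elsewhere and 37.1% of measured genes with other names. GGGCGG was present in 67.6%, 44.6%, 59.3% and 72.1% of these sets, and TGCGCA in 18.8%, 8.42%, 15.8% and 14.1%. TATAAA was present in 1.88%, 11.95%, 4.78% and 5.50%, CACGTG in 4.23%, 7.43%, 6.70% and 10.5%, and GATGGCGG in 2.82%, 2.44%, 3.35% and 5.15%. For most of these motifs the members lay closer to zinc finger genes elsewhere than to all promoters. None of these motifs contains another, and overlapping matches were not counted apart. The median number of CpG in a member promoter was 20, against 14 for all genes and 27 for measured genes with other names. Printed here are ZNF558 (chr19:8832255-8832554, minus strand) and ZNF91 (chr19:23395422-23395721, minus strand), lower in the ANGPTL4 library, and ZNF766 (chr19:52269337-52269636, plus strand) and ZNF587B (chr19:57830049-57830348, plus strand), higher in it, with CCGGAAG or its reverse complement in capitals.
ZNF558 promoter: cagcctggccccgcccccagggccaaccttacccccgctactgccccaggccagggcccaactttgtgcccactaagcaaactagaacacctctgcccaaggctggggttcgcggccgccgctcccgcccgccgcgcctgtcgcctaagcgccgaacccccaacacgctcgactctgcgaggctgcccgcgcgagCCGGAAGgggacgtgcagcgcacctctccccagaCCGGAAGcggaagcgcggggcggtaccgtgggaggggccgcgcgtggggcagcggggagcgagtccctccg
ZNF91 promoter: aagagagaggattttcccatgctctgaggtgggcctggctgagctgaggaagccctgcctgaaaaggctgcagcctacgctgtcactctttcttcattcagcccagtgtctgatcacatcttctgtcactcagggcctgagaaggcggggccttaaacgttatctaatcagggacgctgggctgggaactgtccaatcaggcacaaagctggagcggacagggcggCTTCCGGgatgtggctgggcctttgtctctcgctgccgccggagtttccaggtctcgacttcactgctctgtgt
ZNF766 promoter: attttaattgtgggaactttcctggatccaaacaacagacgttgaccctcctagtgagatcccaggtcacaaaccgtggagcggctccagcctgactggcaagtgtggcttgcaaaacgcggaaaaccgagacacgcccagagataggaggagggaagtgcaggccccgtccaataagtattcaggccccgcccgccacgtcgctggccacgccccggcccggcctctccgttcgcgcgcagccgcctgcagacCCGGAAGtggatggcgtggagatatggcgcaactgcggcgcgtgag
ZNF587B promoter: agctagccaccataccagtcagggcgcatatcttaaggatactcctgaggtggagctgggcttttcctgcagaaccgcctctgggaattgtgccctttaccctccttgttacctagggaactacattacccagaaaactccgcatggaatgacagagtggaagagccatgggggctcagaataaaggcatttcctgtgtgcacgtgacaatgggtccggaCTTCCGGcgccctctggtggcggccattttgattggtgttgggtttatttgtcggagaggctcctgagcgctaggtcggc
The matches start 55 and 21 bases before the gene start in ZNF558, 24 bases before it in ZNF91 and 30 bases before it in ZNF587B (both on the opposite strand), and 4 bases after it in ZNF766. These 4 promoters were picked by hand for carrying CCGGAAG, so their shared letters follow from the choice. ZNF700, ZNF426 and ZNF121, lower in the ANGPTL4 library, and ZNF564, ZNF414 and ZNF331, higher in it, had no match. Presence of the letters did not go with the direction of the difference. The 56 measured members with CCGGAAG had a median log2 ratio of -0.21 and a pooled ratio of 0.802 (0.758 to 0.849), and the 55 without it -0.20 and 0.827 (0.792 to 0.863).

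**Figure D5:**
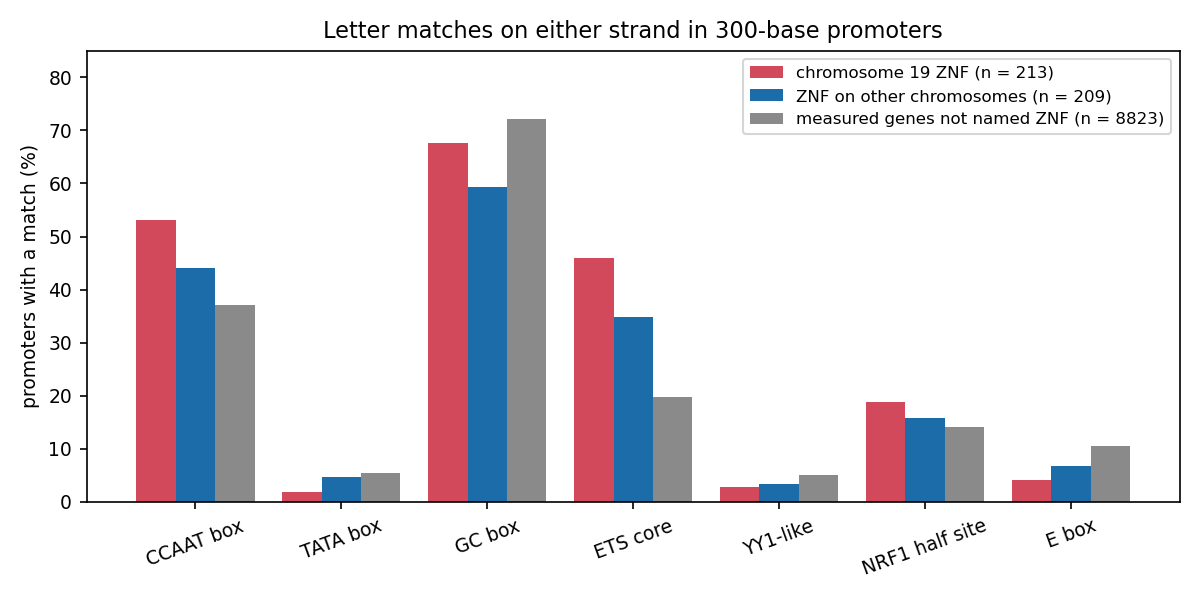
Share of 300-base promoters (%) with a letter match on either strand for 7 motifs, in members, zinc finger genes of other chromosomes and measured genes with other names. The ETS core CCGGAAG is present in 46.0% of member promoters and 19.8% of those of measured genes with other names, and GGGCGG in 67.6% and 72.1%.

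Transcripts of TRIM28 and of other chromatin proteins, most of them linked to KRAB repression, were measured for 26 of 26 genes on the list. In the ANGPTL4 library 10 were lower (38.5%, beside 64.4% of all measured genes) and 16 higher. None was at least 2-fold apart, where 1.92% of all measured genes were lower and 1.19% higher by that much. The median log2 ratio of the list was 0.09, beside -0.11 for all measured genes and -0.21 for the members. TRIM28, the shared corepressor, had 92.1 RPKM in the control and 65.5 RPKM with ANGPTL4, a ratio of 0.712 (0.658 to 0.770), and CBX3, an HP1 protein, had 24.2 and 14.99 RPKM, a ratio of 0.621 (0.532 to 0.721). The other HP1 genes on the list did not share this gap. CBX5 had a ratio of 0.9907 (0.9185 to 1.068) and CBX1 of 1.025 (0.8705 to 1.205). SETDB1, named for its role after its values were seen, had 4.53 and 4.98 RPKM, a ratio of 1.10 (0.867 to 1.39). CHD3, the nucleosome remodeller that TRIM28 binds, had 12.3 and 15.8 RPKM (1.28, 1.15 to 1.44), and TRIM24 and TRIM33, relatives of TRIM28, had ratios of 1.63 (1.24 to 2.13) and 1.25 (1.08 to 1.46). Of 14 zinc finger genes of chromosome 19 with names outside the rule, 6 were measured, 4 of them lower (66.7%), with a median log2 ratio of -0.09. ZFP30, a KRAB gene, stood lowest among these with 1.62 and 0.763 RPKM, a ratio of 0.471 (0.270 to 0.783), and PEG3, an imprinted gene, had 1.85 and 1.43 RPKM, a ratio of 0.773 (0.531 to 1.11).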

How the data were processed

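Per the labels' protocols TRIzol was used to extract total RNA, and 1 vector control and 1 ANGPTL4 library were sequenced, and each library was grouped by the transfection its label names. The values are RPKM per gene row, as the authors deposited them. The build is hg19 per the submitters' processing notes, and the aligner, the annotation, the use of strand and the handling of reads with several matches are not given in the sources used here. Rows of one symbol were summed. The 10 rows of ZNF223, ZNF709, ZNF763, ZNF788 and ZNF8 carry a number after the name and fall outside the rule.

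Library totals were the smallest at which all 13 mitochondrial protein genes gave whole reads (tolerance 0.001), and a gene's exon length was the whole number within 1.25 times (if none, 2.5 times) of its GENCODE 29 exons that gave whole reads in both libraries. This settled 85.8% of measured genes and 100 of the 123 measured members. For the other 23 the smallest candidate gives minimum reads. Log2 ratios carry a pseudocount of 1, which understates low genes. Intervals are exact at 95% and cover counting error only. With 1 library per group no test was possible. Region starts are printed counting from 1.

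Fingers (C-x2-C-x12-H-x3to5-H) and the KRAB A-box (D-[VL]-x3-[FL]-x3-[EQD]-[WL], ahead of the first finger) were searched in GENCODE 29 coding sequences, in every reading frame. The finger number is the highest found for a gene, and the KRAB pattern was called if any transcript and frame matched. The text names the 12 highest and 12 lowest members of at least 2 RPKM, the 6 most abundant, both ends of each block, the members beside ANGPTL4, and at most 6 genes of each added list. CBX1 and CBX5 were added beside CBX3 after their values were seen. The members, lists and tests were chosen with earlier results of these data known. 1 marker list is not reported here. Procedures were checked on simulated data. Python 3.11.15, numpy 2.4.6, pandas 2.3.3 and scipy 1.17.1 were used.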

Additional observations from a re-analysis of the deposited data

How the results depend on the processing

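Depth limits most members: the median measured member had 26 reads in the ANGPTL4 library, and differences between cultures were not measured at all. The median log2 ratio of the members, -0.208, was -0.297 with a pseudocount of 0.1, -0.088 with 5, -0.096 after centring on the median gene, -0.096 with upper-quartile scaling and -0.315 from reads with no pseudocount. Under both pseudocounts and both scalings it was below the median of all genes. The count at least 2-fold lower, 1, became 11 (pseudocount 0.1), 0 (pseudocount 5), 0 (minimum of 5 RPKM) and 15 (reads, no pseudocount). These are counts of 123, 123, 14 and 123 members. All genes, not matched for level or read number, gave 532 of 11801, 26 of 11801, 126 of 6856 and 480 of 11099 in the same settings. The count at least 2-fold higher, 0, became 2 with a pseudocount of 0.1, 2 after centring, 2 with upper-quartile scaling, 2 without mitochondrially encoded genes and 3 from reads. These are counts of 123, 123, 130, 132 and 123 members. All genes gave 284 of 11801, 182 of 11801, 189 of 11925, 169 of 11964 and 155 of 11099. The block ZNF101 to ZNF254, at -0.328, went to -0.557 and -0.116 with pseudocounts of 0.1 and 5. Centring reversed ZNF565 to ZNF573 (0.014), ZNF575 to ZNF180 (0.015) and ZNF628 to ZNF835 (0.079), by construction, since it adds the shift of the median gene to every ratio. The pooled ratio, 0.815, was 0.848 without mitochondrially encoded genes. Of 184 alternatives for named members 164 lay within the counting interval of the gene's read ratio and 20 beyond it, and ZNF526 and ZNF581 changed sign. That interval carries no pseudocount, and the main log2 ratios of ZNF700 and ZNF564 lay outside their own. The split is therefore no measure of distance from the main value. Centring, upper-quartile scaling and the rescaling without mitochondrially encoded genes were planned, and the pooled reads, the reads with no pseudocount and the added numbered rows were chosen after seeing the data. No paired analysis was possible because each group has 1 library.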

Other observations

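Members under 1 RPKM held some wide gaps that the measured set leaves out. The members named here were picked after their values were seen. ZNF93, which silences LINE-1 elements as ZNF91 does SVA elements, had 0.623 RPKM in the control and 0.0633 RPKM with ANGPTL4, from 20 reads and 1, a ratio of 0.102 with an exact counting interval from 0.00245 to 0.635. ZNF443 had 0.718 RPKM from 13 reads in the control and was listed at 0 in the ANGPTL4 library, where the interval of the ratio reaches up to 0.667. ZNF552 had 0.509 RPKM from 10 reads and was also listed at 0 there, with an upper limit of 0.907. Higher in the ANGPTL4 library were ZNF578, with 0.161 and 0.763 RPKM from 9 and 21 reads (ratio 4.74, 2.08 to 11.8), ZNF580, with 2 and 7 reads (7.11, 1.36 to 70.2), and ZNF702P, with 8 and 11 reads (2.80, with an interval that starts at 1.02). Depth was 2.03 times higher in the control. ZNF350, known as ZBRK1 and a partner of BRCA1, had 0.804 and 0.545 RPKM from 24 and 8 reads, and a ratio of 0.677 (0.263 to 1.56).

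Genes around the endogenous ANGPTL4 locus lay on both sides of equal levels. On the log2 ratio scale, the widest gaps among the measured ones within 600 kb, apart from ANGPTL4, were in NDUFA7 (14.3 and 30.2 RPKM, log2 ratio 1.02, several rows summed) and RPS28 (28.0 and 13.3 RPKM, ratio 0.474, 0.365 to 0.610), which lie just before it and whose regions overlap each other. RAB11B, the next gene after it, had 22.7 RPKM in the control and 23.4 RPKM with ANGPTL4 (ratio 1.03, 0.859 to 1.23), HNRNPM 39.4 and 33.5 RPKM (0.850, 0.761 to 0.948) and MUC16, beside ZNF558, 8.16 and 10.1 RPKM (1.23, 1.15 to 1.32).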
